A study of Rattus norvegicus with 8 samples.

Results

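The pregnane X receptor (PXR, gene Nr1i2), the constitutive androstane receptor (CAR, gene Nr1i3), the electron donor of microsomal cytochromes P450 (Por) and the CYP3A and CYP2B cytochromes Cyp3a1, Cyp3a2, Cyp3a9, Cyp3a18, Cyp2b1, Cyp2b2 and Cyp2b3 were followed in rat liver after lipopolysaccharide (LPS). They were chosen by name, as probes whose gene symbol, older synonyms included, is one of these 10 genes. The arrays carried probes for 8 of the 10 genes, 12 probes of 23615, while no probe was labelled Cyp3a18 or Cyp2b1. Probes with enough values for a test covered 7 genes. Cyp3a1 was on the arrays under 2 probes and is named Cyp3a23-3a1 in the current RefSeq gene table.

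LPS, the endotoxin of Gram-negative bacteria, was given to 4 Sprague Dawley rats of unknown age at 3 mg/kg into the peritoneum, and 4 rats of the same strain were controls. The labels describe the controls both as untreated and as receiving 0.9% sodium chloride, and put tissue collection at 24 h. The column headers differ: they place every array at day 2, name the level of LPS array 1 Mid (100 mkd) and that of the other 3 LPS arrays High (1000 mkd), and give controls 0 mkd. Each liver was labelled with Cy5 and hybridised to an Agilent array beside a pool of control livers in Cy3, after 100 ng of RNA had gone through a two-round amplification. Arrays are numbered here in table order within a group, since the columns name no labelled replicate. The measure is the log2 ratio of liver over pool on the same array, and a difference is LPS minus control. The labels call the samples biological replicates.

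PXR and CAR are nuclear receptors that sense foreign chemicals, bile acids and steroids in the liver. Each pairs with a retinoid X receptor (RXR) and binds repeated hexamers near genes of oxidation, conjugation and transport, with the CYP3A genes as the classical PXR targets and the CYP2B genes as the classical CAR targets. The cytochromes sit in the endoplasmic reticulum, where Por hands them electrons from NADPH, and inflammation is known to lower many of them in liver.

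After LPS, 6 of the 7 testable genes fell and 1, Cyp3a9, was not called. Cyp3a1 fell 6.24-fold, Cyp2b2 3.10-fold, Por 2.58-fold, Nr1i2 1.82-fold, Nr1i3 1.78-fold and Cyp2b3 1.37-fold. The median difference of the 7 genes was -0.87 on the log2 scale, beside -0.04 over all 21052 features. Of all features, 24.7% were called at an adjusted p under 0.05 (limma, Benjamini-Hochberg over all features) and 12.4% were called lower. In 5 of the 7 genes every LPS value lay below every control value, which held for 14.7% of all features. Among all features ordered by difference from the largest fall, Cyp3a1 ranked 23, Cyp2b2 101, Por 174, Nr1i2 553, Nr1i3 618 and Cyp2b3 1826. In these whole-liver samples fewer cells of a type and less RNA per cell cannot be told apart.

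**Figure D1:**
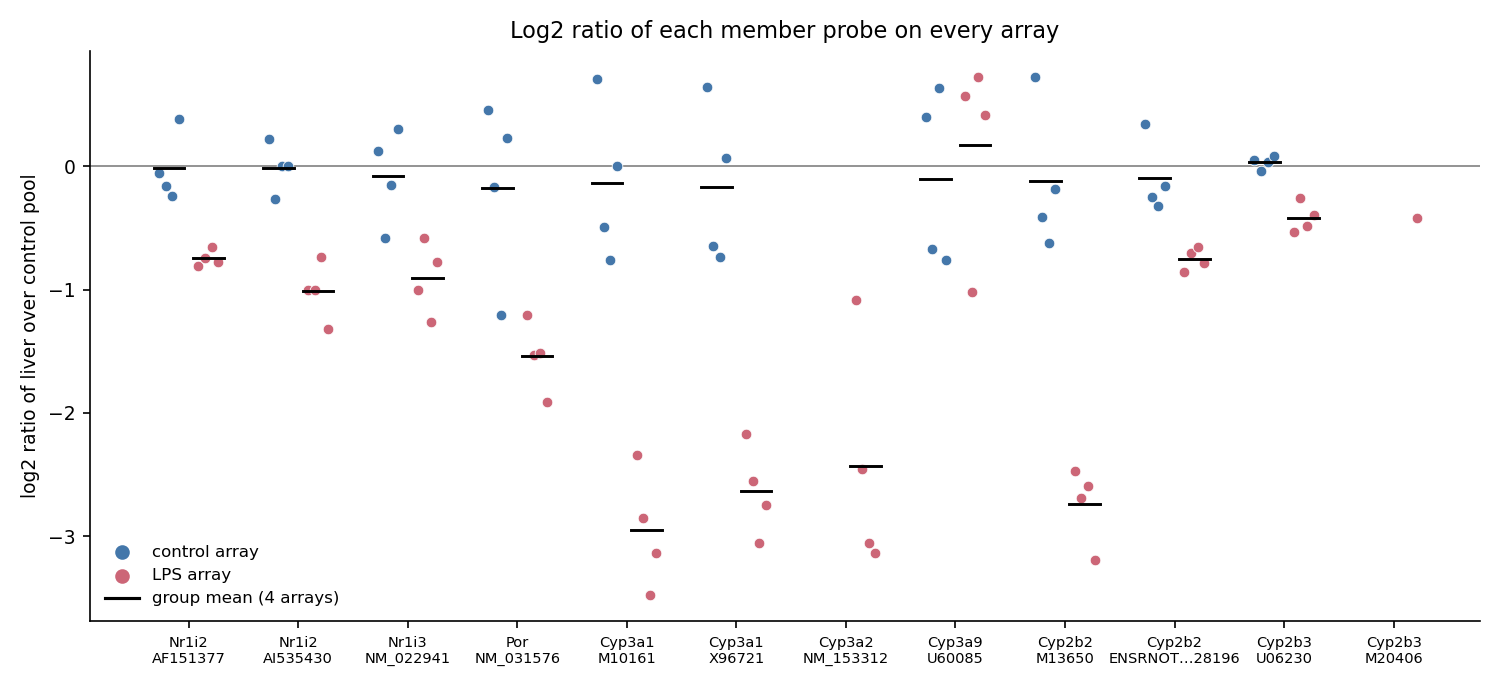
Each point is the log2 ratio of liver over control pool for a probe on an array (blue, 4 control arrays; red, 4 LPS arrays; black bars, group means), with probes in order of the genes' roles. The Cyp3a1 probes and the first Cyp2b2 probe hold the widest gaps between groups, Cyp3a9 overlaps, and Cyp3a2 (NM_153312) and Cyp2b3 (M20406) have no control points.

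The arrays had values for 23408 to 23529 of the 23615 probes, with a median log2 ratio of 0 on each, and the standard deviation (SD) of the ratios was 0.22 to 0.34 on control arrays and 0.50 to 0.57 on LPS arrays. Control array 3 stood apart from the other controls in 2 acute-phase genes: its log2 ratio was 1.51 for Lbp, an LPS-binding plasma protein, against -1.66 to -0.58 on the other controls and 1.52 to 1.74 on LPS arrays. The ratio of A2m, an acute-phase protease inhibitor in the rat, was 1.79 on that array against -3.59 to -0.92 on the other controls and 2.42 to 2.77 on LPS arrays. The neutrophil gene S100a9 did not set it apart, at 0.18 against -0.55 to 0.48 on the other controls and 4.48 to 5.03 on LPS arrays. Of the hepatocyte markers listed, 5 of 9 were tested, of which Serpina1 rose, Alb fell and 3 were not called. The summed liver intensity of these 5 was 26.2 to 33.2 units on control arrays and 17.6 to 19.4 on LPS arrays. Of these 5, 1 averaged under 0.1 units over all arrays, and the control ratios of Serpina1 had a mean and an SD of 0. Neutrophil markers rose in 4 of 8 cases, with a summed intensity of 0.46 to 0.54 units in controls and 7.80 to 13.4 after LPS. Of the 8, 6 averaged under 0.1 units over all arrays. Mpo and Elane were not called, and the Mpo ratios had a mean and an SD of 0 in both groups. T and NK cell markers also rose in 4 of 8 cases, with summed intensities of 1.51 to 1.67 and 2.36 to 3.58 units. The Kupffer cell list (7 of 8 measured) summed to 17.6 to 24.2 and 13.5 to 16.9 units, the endothelial list (6 of 6) to 40.0 to 46.4 and 27.4 to 36.4, the stellate list (4 of 5) to 4.31 to 5.78 and 3.79 to 4.95, and the cholangiocyte list (3 of 4) to 0.55 to 0.84 and 0.65 to 0.82, controls first. A sum is weighted to the brightest markers, and the calls of single markers were mixed. The Kupffer cell list held 1 rise and 2 falls, the endothelial list 3 rises and 2 falls, and the stellate list 1 rise and 1 fall. No cholangiocyte marker was called. Of all features 12.2% were called higher and 12.4% lower. The part of these shifts in the results on PXR, CAR and their targets was not tested.

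The receptors come first. Nr1i2 encodes PXR and lies at chr11:75965717-76006733 in the rat build GRCr8. On its probe AF151377 the liver intensities were 1.81, 1.64, 1.48 and 2.52 units on control arrays 1 to 4. They were 1.03, 1.01, 0.78 and 1.00 units on LPS arrays 1 to 4. The groups did not overlap, with the lowest control (array 3) still above the highest LPS liver, and the pool gave 1.23 to 1.93 units over the arrays. The log2 ratios averaged -0.02 ± 0.28 (SD, n = 4) in controls and -0.74 ± 0.06 (SD, n = 4) after LPS, a difference of -0.73 ± 0.13 (SE; limma adjusted p = 0.00684). Its other probe, AI535430, was dim, with 0.05 to 0.07 units in control livers and 0.02 to 0.03 units after LPS, and differed by -1.0 ± 0.14 (SE; limma adjusted p = 0.00246). The deposited intensities carry 2 decimals, so at this brightness rounding alone allows the groups of AI535430 to touch, and the smallest difference it allows is -0.38.

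Over all single probes 24.9% were called. Averaged over both probes, Nr1i2 had log2 ratios of 0.08, -0.21, -0.12 and 0.19 on control arrays and of -0.90, -0.87, -0.70 and -1.05 on LPS arrays. All 4 LPS livers were lower than every control. The difference was -0.87 ± 0.11 (SE; 95% confidence interval -1.12 to -0.61; limma adjusted p = 0.00155), and Nr1i2 stayed called whichever array was left out. Against a change of 1.5-fold, in place of no change, limma gave an adjusted p of 0.434, the highest of a range of 0.000673 to 0.434 over the alternatives.

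Nr1i3 encodes CAR (chr13:86165327-86170362). Its only probe gave liver intensities of 0.12, 0.08, 0.09 and 0.16 units on control arrays and of 0.05, 0.08, 0.05 and 0.07 units on LPS arrays, with the pool at 0.10 to 0.13. The log2 ratios were 0.13, -0.58, -0.15 and 0.30 in controls and -1.0, -0.58, -1.26 and -0.78 after LPS. Control array 2 and LPS array 2 had equal values, so the groups touched, while the other 3 controls lay above all LPS livers. Nr1i3 fell by 0.83 ± 0.22 on the log2 scale (SE; limma adjusted p = 0.0295), and rounding of the intensities moves a single ratio by up to 0.22. The call was lost without control array 1 (limma adjusted p = 0.0784), 3 (0.0570) or 4 (0.0649) and without LPS array 1 (0.0732), 3 (0.0779) or 4 (0.0593), with the difference between -0.997 and -0.703 whichever array was left out. It was also lost with quantile normalization of the ratios (limma adjusted p = 0.205, of a range of 0.00454 to 1 over the alternatives).

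**Figure D2:**
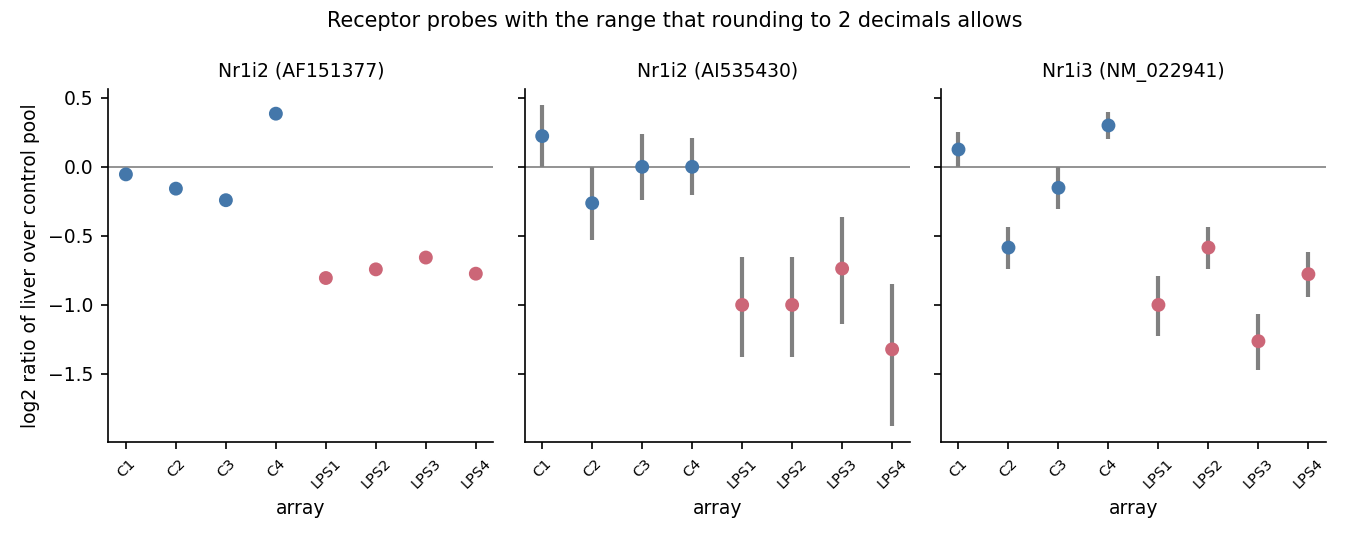
Log2 ratios of liver over control pool for the 3 receptor probes on control arrays (C1 to C4, blue) and LPS arrays (LPS1 to LPS4, red); grey lines span the values that rounding of both intensities to 2 decimals allows. AF151377 keeps its groups apart with narrow lines, while the lines of AI535430 and NM_022941 let the groups meet.

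The responses of the receptors were compared within arrays. The Nr1i3 response minus the Nr1i2 response was 0.04 ± 0.23 (SE, log2; exact two-sided permutation test over 70 splits, p = 0.886, 0.886 after adjustment over the 2 pairs tested). The array values of this contrast were 0.04, -0.37, -0.03 and 0.11 in controls and -0.10, 0.29, -0.57 and 0.27 after LPS, with overlap throughout. The 2 other planned pairs, which needed Cyp3a18 or Cyp2b1, could not be tested.

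Features whose ratios over the 8 arrays were most like those of each receptor were listed as a description, among 9177 and 9178 features complete on all arrays and at 0.1 units or more in the average liver. For Nr1i2 these were Syt11 (Pearson r = 0.987), Vom1r50 (0.986) and Wiz (0.983). For Nr1i3 they were Sar1b (0.990), Omd (0.982) and Dnaja1 (0.975). The 8 points share the pool and the division into control and LPS arrays.

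Among partners and regulators of the receptors, 30 of 32 listed genes were tested, 5 fell (16.7%), 3 rose (10%) and 22 were not called, with a median difference of -0.12. These shares lie near the 12.4% called lower and 12.2% called higher over all features. Nr0b2, which encodes the corepressor SHP, fell by 3.16 ± 0.63 on the log2 scale (SE; limma adjusted p = 0.00954). Gadd45b, a stress-induced gene known as a coactivator of CAR in mouse liver, fell by 1.12 ± 0.23 (SE; limma adjusted p = 0.0111). The largest rises were 0.37 ± 0.06 for Smarca4 (limma adjusted p = 0.00405), the ATPase of a chromatin remodelling complex, and 0.31 ± 0.07 for Nfkb1 (limma adjusted p = 0.0146), a subunit of NF-kB. Rxra, the main RXR of liver, differed by -0.14 ± 0.05 (limma adjusted p = 0.0901) and Hnf4a, a hepatocyte factor known to drive both receptor genes, by -0.15 ± 0.06 (limma adjusted p = 0.0914); neither was called.

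Por encodes NADPH-cytochrome P450 oxidoreductase (chr12:26587674-26655612). Its probe gave liver intensities of 1.67, 1.16, 0.63 and 1.72 units on control arrays and 0.61, 0.43, 0.41 and 0.30 units on LPS arrays, against a pool of 1.13 to 1.47. The log2 ratios were 0.45, -0.16, -1.20 and 0.23 in controls and -1.21, -1.53, -1.51 and -1.91 after LPS. Control array 3, the array with raised Lbp and A2m, lay within 0.01 of LPS array 1, and rounding allows these 2 to change places; the other 3 controls were well above all LPS livers. Por fell by 1.37 ± 0.35 on the log2 scale (SE; 95% confidence interval -2.19 to -0.55; limma adjusted p = 0.027). Without control array 3 the difference was -1.71 (limma adjusted p = 0.00269). The call was lost without control array 1 (limma adjusted p = 0.0654), 2 (0.0616) or 4 (0.0668) and without LPS array 2 (0.0666), 3 (0.0683) or 4 (0.0758), and with quantile normalization of the ratios (0.367, of a range of 0.00269 to 0.627 over the alternatives).

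Other genes of microsomal electron transfer and heme supply went in both directions. Of 18 listed, 17 were tested, 3 fell, 3 rose (17.65% each, beside 12.4% and 12.2% of all features) and 11 were not called, with a median difference of -0.03. Alas1, which starts heme synthesis and limits its rate in liver, fell by 1.11 ± 0.30 on the log2 scale (SE; limma adjusted p = 0.0307). Pgrmc1, a heme-binding membrane protein that associates with P450 enzymes, fell by 0.85 ± 0.13 (SE; limma adjusted p = 0.00506). Cyb5b, a cytochrome b5 of the outer mitochondrial membrane, rose by 1.01 ± 0.11 (SE; limma adjusted p = 0.000984), and Hmox1, which breaks down heme, by 0.46 ± 0.09 (SE; limma adjusted p = 0.00915).

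**Figure D3:**
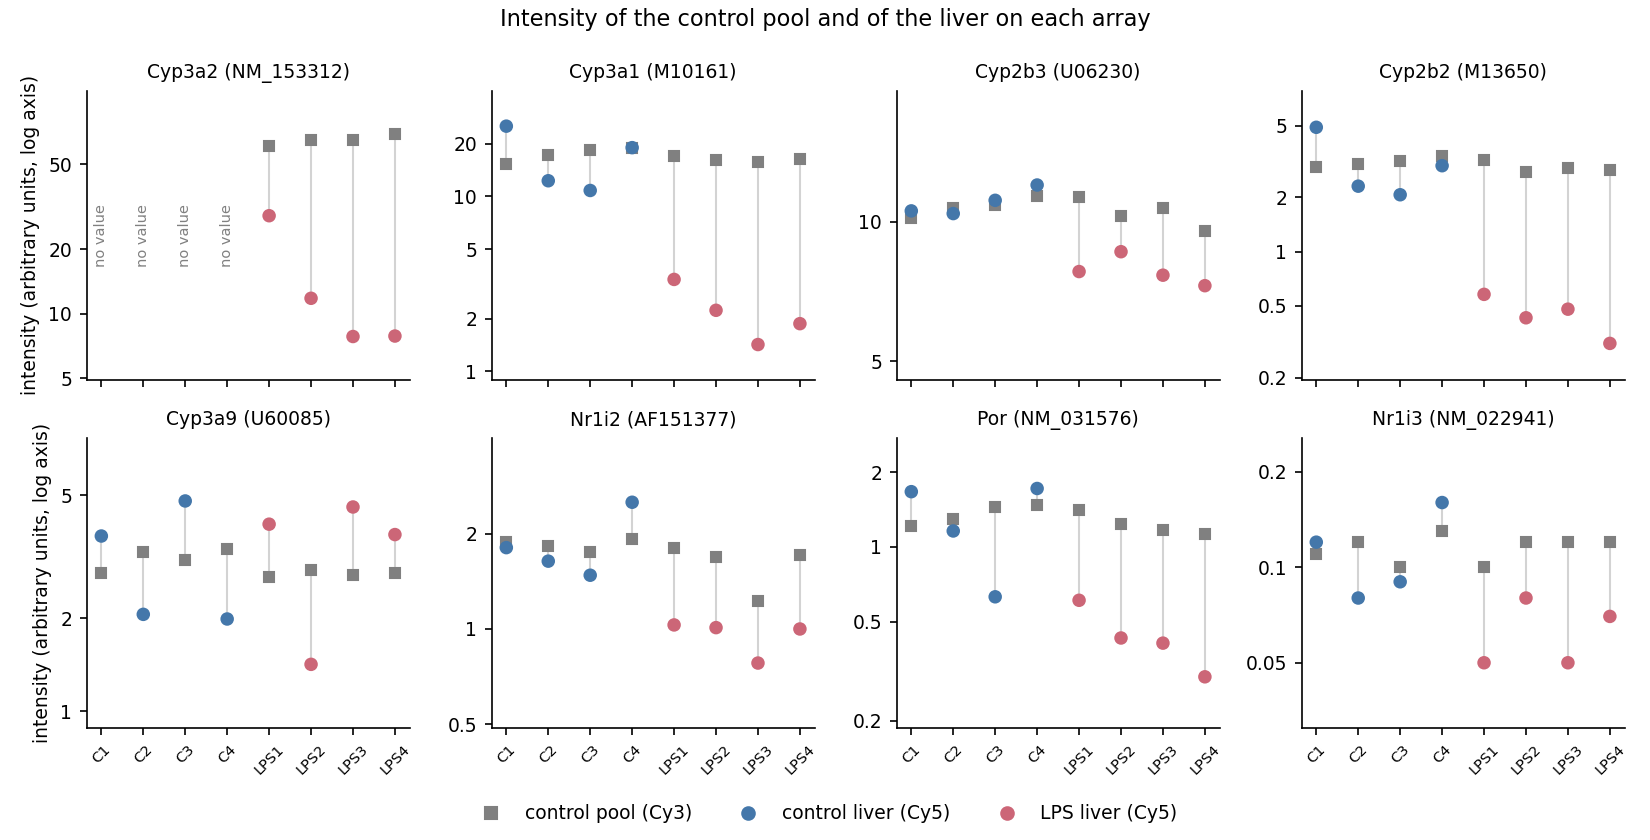
Intensity in arbitrary units (log axis, a scale of its own in each panel) of the control pool (grey squares) and the liver (blue, control; red, LPS) on each of the 8 arrays for a probe of each gene. The pool stays nearly level while LPS livers drop for Cyp3a1, Cyp2b2 and Por; Cyp3a2 has values on LPS arrays only.

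The CYP3A targets lie on chromosome 12, with Cyp3a18, Cyp3a2 and Cyp3a1 close together and Cyp3a9 apart from them. Promoters are shown for the 3 of these genes with probes, since PXR acts through such sequences, and no test here links a promoter to a response. Each window is the 250 bases before the start used in the RefSeq promoter table (GRCr8), 5′ to 3′ on the gene's strand. For Cyp3a2, and for Cyp2b2 and Cyp2b3 further on, that start lies inside the gene as the gene table bounds it, so distances to the start hold for the promoter table only. All 3 lie on the minus strand: Cyp3a1 at chr12:14398804-14399053, Cyp3a2 at chr12:14343858-14344107 and Cyp3a9 at chr12:21960161-21960410. Capitals mark TGAACT or AGGTCA, the hexamers recognised by nuclear receptors, on either strand, and the whole of a direct repeat of TGAACT with 3 bases between the copies.
Cyp3a1: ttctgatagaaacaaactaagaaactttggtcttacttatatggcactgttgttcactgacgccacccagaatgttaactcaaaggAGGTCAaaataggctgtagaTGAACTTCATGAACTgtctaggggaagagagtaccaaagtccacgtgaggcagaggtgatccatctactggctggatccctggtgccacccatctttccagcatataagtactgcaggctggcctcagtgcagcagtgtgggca
Cyp3a2: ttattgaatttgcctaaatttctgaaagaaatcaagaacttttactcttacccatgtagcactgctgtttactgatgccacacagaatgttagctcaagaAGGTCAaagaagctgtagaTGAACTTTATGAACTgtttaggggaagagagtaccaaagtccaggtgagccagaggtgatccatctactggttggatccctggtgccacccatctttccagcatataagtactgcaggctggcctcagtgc
Cyp3a9: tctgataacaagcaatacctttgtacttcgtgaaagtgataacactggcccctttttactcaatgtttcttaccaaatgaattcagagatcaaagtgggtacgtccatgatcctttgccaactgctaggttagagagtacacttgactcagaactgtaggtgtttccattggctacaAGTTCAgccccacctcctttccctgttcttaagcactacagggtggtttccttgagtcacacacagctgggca

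The direct repeat TGAACTNNNTGAACT, an arrangement that PXR with RXR is known to bind, was searched on both strands of 33469 RefSeq promoter windows of the same length and occurred in 2 of them (0.00598%), those of Cyp3a1 and Cyp3a2. It read TGAACTTCATGAACT from 144 to 130 bases before the promoter table's start of Cyp3a1 and TGAACTTTATGAACT from 131 to 117 bases before that of Cyp3a2. The same repeat with 4 bases between the copies was in 0.012% of windows and in no member's. The everted repeat TGAACTNNNNNNAGTTCA was in 0 windows. Only exact matches were counted, and repeats in which a copy reads AGGTCA were not searched, so this says nothing of such elements. TGAACT alone, which overlaps these repeats, was in 12.2% of windows and in 5 of the 10 members' (Nr1i2, Cyp3a1, Cyp3a2, Cyp3a9 and Cyp3a18), and AGGTCA was in 14.1% and in those of Por, Cyp3a1 and Cyp3a2. The whole Por window (chr12:26635810-26636059) lies within the bounds of the gene given above, and the starts used for Nr1i3 and Cyp2b1 lie within theirs. Aligned, the Cyp3a1 and Cyp3a2 windows were 89.6% identical over 231 bases, Cyp3a1 and Cyp3a9 66.7%, and Cyp3a1 and Cyp3a18 62.4%. These matches describe the letters of the window and no binding was measured.

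Cyp3a1, a steroid- and drug-oxidising cytochrome inducible by dexamethasone in the rat, had the largest fall of the 7 members tested. On probe M10161 the liver intensities were 25.26, 12.30, 10.82 and 19.03 units on control arrays, with the pool at 15.44 to 18.98 over all arrays. After LPS they were 3.35, 2.23, 1.42 and 1.87 units. Control arrays 1 and 4 were the highest, and the highest LPS liver (array 1) was still well below the lowest control (array 3). The difference was -2.82 ± 0.36 (SE, log2; limma adjusted p = 0.00162), or 7.05-fold lower. Probe X96721 showed the same order of controls, with liver intensities of 14.52, 6.85, 6.18 and 11.85 units against 2.36, 1.62, 1.24 and 1.29 after LPS, and was 5.52-fold lower (limma adjusted p = 0.00205). Averaged over both probes, the log2 ratios were 0.68, -0.57, -0.75 and 0.04 in controls and -2.26, -2.70, -3.27 and -2.94 after LPS. No values overlapped, and the difference was -2.64 ± 0.35 (SE; 95% confidence interval -3.45 to -1.83; limma adjusted p = 0.00177). The call held whichever array was left out and was lost with quantile normalization of the ratios (-1.97, limma adjusted p = 0.0583, of a range of 0.000401 to 0.0583 over the alternatives).

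Cyp3a2, a male-predominant CYP3A of rat liver that oxidises testosterone, had no value on any control array and could not be tested. On LPS arrays 1 to 4 the pool read 60.78, 64.69, 65.00 and 68.98 units and the liver 28.69, 11.80, 7.82 and 7.86 units. Every LPS liver was below its own pool, with log2 ratios of -1.08, -2.45, -3.06 and -3.13, and the liver of LPS array 1 was the brightest. In the authors' deposited table the p-values of these ratios within an array were 0.03, 1.98e-07, 6.54e-10 and 1.13e-10. The pool intensities stood at 90.5% to 100% of the highest pool value on their array, and whether these spots were saturated is not given in the sources used here. If they were, each ratio is a bound on the distance to the pool. Missing control values were common among probes this bright. Of 84 probes with a pool intensity of at least 50 units on an LPS array, 40 had no control value at all, beside 59 of 23610 probes with any value on an LPS array.

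Near-identical members of the family can share a probe's signal, so the split between Cyp3a1 and Cyp3a2 is uncertain. A probe named for the pseudogene Cyp3a85-ps, singled out after its values were seen, gave liver intensities of 20.86, 10.75, 12.61 and 18.68 units on control arrays and 4.05, 1.88, 1.22 and 1.31 units on LPS arrays. Its groups did not overlap, and it was 8.09-fold lower (difference -3.02 ± 0.40, SE, log2; limma adjusted p = 0.00175).

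Cyp3a9, a form known as female-predominant in rat liver, was not called. Its liver intensities were 3.69, 2.06, 4.79 and 1.99 units on control arrays and 4.03, 1.42, 4.58 and 3.73 units on LPS arrays, while the pool varied only from 2.72 to 3.36. The log2 ratios were 0.40, -0.67, 0.63 and -0.76 in controls and 0.57, -1.02, 0.73 and 0.41 after LPS. Both groups held high and low livers: control arrays 1 and 3 and LPS arrays 1, 3 and 4 were above the pool, and the other 3 arrays were below it. In the authors' deposited table each of the 8 within-array p-values for this probe lay between 6.77e-09 and 0.02. The difference was 0.27 ± 0.48 (SE; limma adjusted p = 0.711), with a 95% confidence interval of -0.85 to 1.39. The interval holds both a fall as large as that of Cyp2b3 and a rise.

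The CYP2B genes lie together on chromosome 1. Promoter windows of Cyp2b2 and Cyp2b3 are shown as those of the CYP2B genes tested, at chr1:90722031-90722280 and chr1:90780242-90780491, both on the plus strand (RefSeq, GRCr8, 250 bases before the start that the promoter table uses, 5′ to 3′). Neither holds any of the motifs searched, so neither has capitals. Sequence outside these 250 bases and direct repeats of AGGTCA were not searched, so the windows do not show whether CAR sites are absent.
Cyp2b2: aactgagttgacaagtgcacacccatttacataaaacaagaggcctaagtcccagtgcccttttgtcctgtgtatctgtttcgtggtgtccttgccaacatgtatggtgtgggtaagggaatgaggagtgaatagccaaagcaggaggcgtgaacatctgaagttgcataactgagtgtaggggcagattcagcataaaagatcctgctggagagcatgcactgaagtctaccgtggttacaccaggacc
Cyp2b3: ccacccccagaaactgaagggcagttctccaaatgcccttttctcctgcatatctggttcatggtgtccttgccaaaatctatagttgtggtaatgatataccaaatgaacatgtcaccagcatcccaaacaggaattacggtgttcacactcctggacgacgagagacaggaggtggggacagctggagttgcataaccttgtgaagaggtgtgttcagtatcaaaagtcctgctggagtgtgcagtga

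The Cyp2b2 and Cyp2b3 windows were 72.1% identical over 201 aligned bases, and those of Cyp2b1 and Cyp2b2 were 96.6% identical over 233. No probe carried the name Cyp2b1, and signal from that close relative in the Cyp2b2 probes cannot be told apart from Cyp2b2.

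Cyp2b2, the phenobarbital-inducible CYP2B named on the arrays, had 2 probes, which differed in the size of the change. On M13650 the liver intensities were 4.90, 2.31, 2.07 and 3.00 units on control arrays and 0.58, 0.43, 0.48 and 0.31 units on LPS arrays. Every LPS liver was far below every control, and the fall was 6.14-fold (difference -2.62 ± 0.30, SE, log2; limma adjusted p = 0.00104). On the other probe, ENSRNOT00000028196, the liver intensities were 0.66, 0.32, 0.32 and 0.42 units in controls and 0.26, 0.32, 0.42 and 0.29 units after LPS, which overlap. Its ratios to the pool did not overlap, with -0.32 to 0.34 in controls and -0.85 to -0.65 after LPS. The ratio was 1.57-fold lower (difference -0.65 ± 0.15, SE, log2, limma adjusted p = 0.0155). Part of this lay in the pool of this probe, which was brighter on LPS arrays by 0.28 on the log2 scale.

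The average of the probes gave Cyp2b2 log2 ratios of 0.54, -0.33, -0.47 and -0.17 in controls and -1.66, -1.70, -1.62 and -1.99 after LPS. The groups did not overlap, and the difference was -1.63 ± 0.22 (SE; 95% confidence interval -2.14 to -1.13; limma adjusted p = 0.0018). It was lost with quantile normalization of the ratios (-1.22, limma adjusted p = 0.0943, of a range of 0.000429 to 0.0943 over the alternatives).

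Cyp2b3, a CYP2B known in the rat as not induced by phenobarbital, fell the least of the called genes. On its probe U06230 the liver intensities were 10.56, 10.42, 11.13 and 12.01 units on control arrays and 7.81, 8.62, 7.67 and 7.28 units on LPS arrays. The controls lay close together and all above the LPS livers. The log2 ratios were 0.05, -0.04, 0.04 and 0.08 in controls and -0.53, -0.26, -0.48 and -0.39 after LPS, a difference of -0.45 ± 0.07 (SE; 95% confidence interval -0.61 to -0.29; limma adjusted p = 0.00317). Tested against a change of 1.5-fold, Cyp2b3 was not called (limma adjusted p = 1, of a range of 0.0016 to 1 over the alternatives). That result does not show that the change was under 1.5-fold. A further Cyp2b3 probe, M20406, had a value on LPS array 3 only, where the pool read 61.52 and the liver 46.08 units, a log2 ratio of -0.42.

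The Cyp2b2 response minus the Cyp2b3 response within arrays was -1.18 ± 0.25 (SE, log2). The contrast was 0.49, -0.29, -0.51 and -0.25 in controls and -1.13, -1.44, -1.14 and -1.60 after LPS, with no overlap. The exact two-sided permutation test gave p = 0.0286, the smallest that 70 splits allow, and 0.0571 after adjustment over the 2 pairs, which misses the threshold of 0.05. Cyp2b2 entered as the average of its 2 probes, whose own differences were -2.62 (M13650) and -0.65 (ENSRNOT00000028196), beside -0.45 for Cyp2b3. The size of the contrast therefore depends on the probe, and the probes were not tested separately against Cyp2b3.

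**Figure D4:**
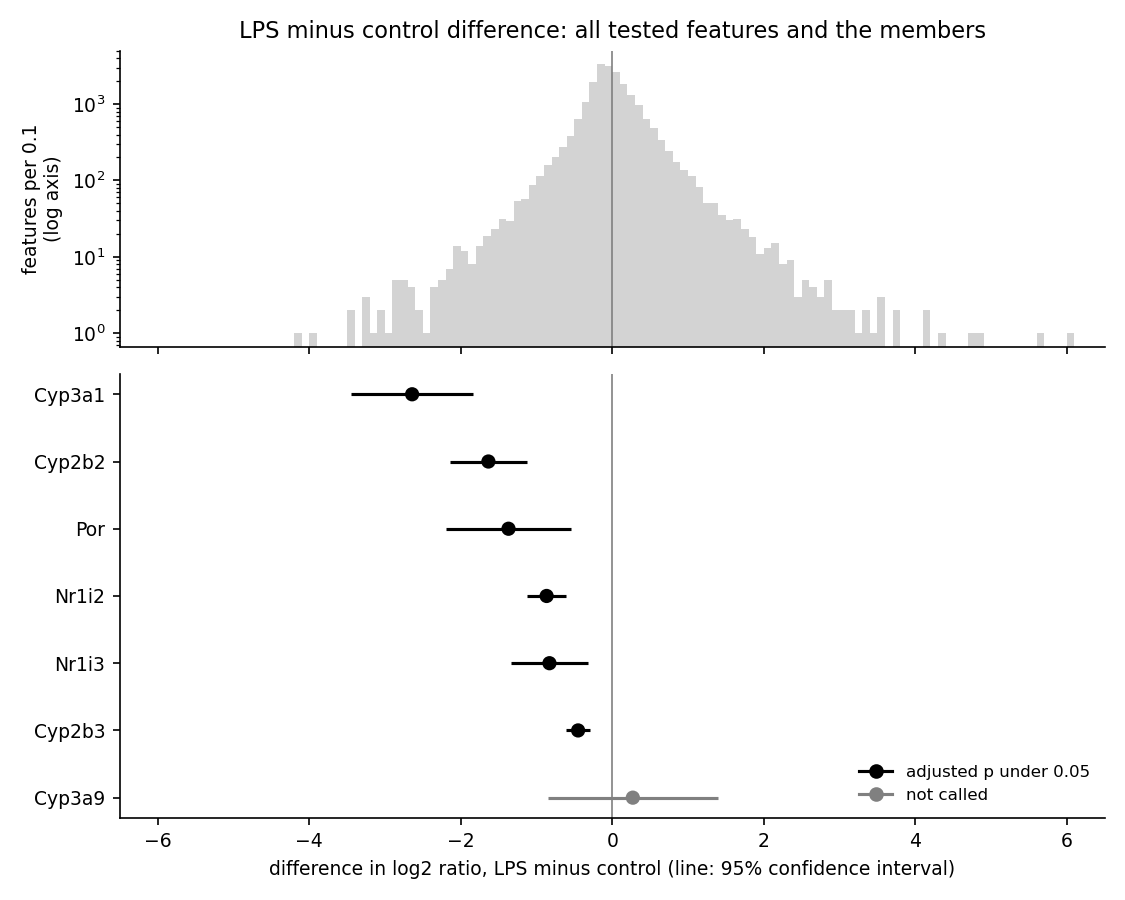
Upper panel, number of features (log axis) per 0.1 of LPS minus control difference in log2 ratio over all tested features; lower panel, the difference of each tested gene with its 95% confidence interval (black, adjusted p under 0.05; grey, Cyp3a9, not called). Cyp3a1, at -2.64, lies far in the left tail, and Cyp2b3, at -0.45, is nearest to 0 of the called genes.

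The spread within the groups differed between the genes. The control SD of the log2 ratio was 0.73 for Por, 0.72 for Cyp3a9 and 0.65 for Cyp3a1, beside a median of 0.16 over 20751 features, of which 97.9%, 97.8% and 96.9% had an SD at or below these. For Cyp2b3 it was 0.05, a value that 10.4% of features were at or below. After LPS the SD of Cyp3a9 was 0.80 and that of Cyp3a1 0.43, beside a median of 0.12.

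Other genes known as PXR or CAR targets were lower in most cases. Their list was not divided by whether the receptors raise or lower a gene, so the share called lower does not measure receptor activity. Of 35 listed, 33 were on the arrays and 30 were tested: 19 fell (63.3%, beside 12.4% of all features), 1 rose and 10 were not called, with a median difference of -0.80. Ugt2b1, a glucuronosyltransferase, fell by 2.84 ± 0.44 on the log2 scale (SE; limma adjusted p = 0.00343). Gsta2, a glutathione transferase, fell by 1.71 ± 0.44 (SE; limma adjusted p = 0.0273). Abcb1b, a multidrug efflux transporter, was the 1 gene that rose, by 1.54 ± 0.30 (SE; limma adjusted p = 0.0089). The 19 that fell also held the transporters Slco1a4, Slco1b2 and Abcc2 and the glutathione transferases Gsta1, Gsta3, Gsta4, Gstm1 and Gstm2. The transporters Abcb1a (difference -0.50, limma adjusted p = 0.0577) and Abcc3 (difference -0.04, limma adjusted p = 0.609) were not called.

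**Figure D5:**
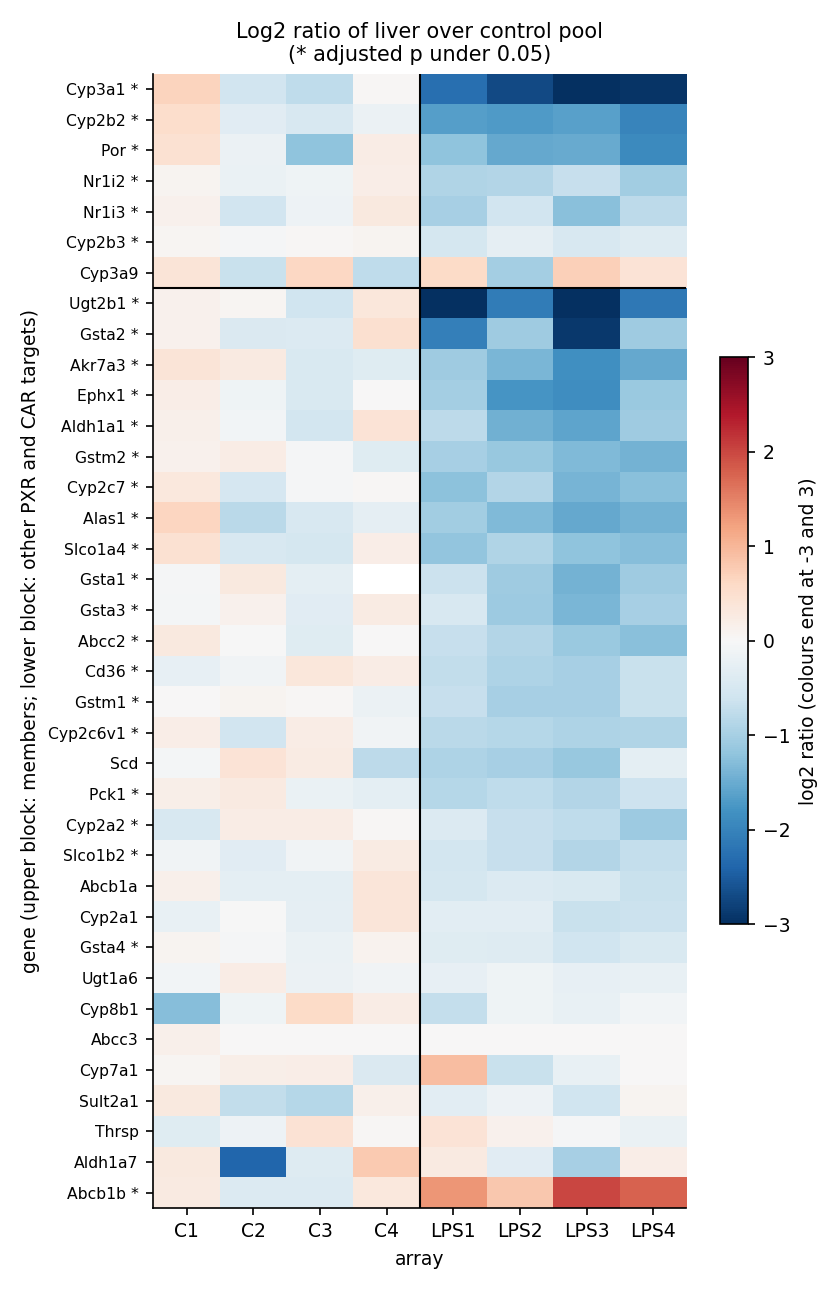
Log2 ratio of liver over control pool (blue, below the pool; red, above; colours end at -3 and 3; white, 0 or no value) for the tested members (upper block) and other PXR and CAR targets (lower block) on control arrays C1 to C4 and LPS arrays LPS1 to LPS4; * marks an adjusted p under 0.05. Most rows turn blue across the LPS arrays, with Abcb1b the called row that turns red.

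Of 9 further genes listed with the CYP3A and CYP2B families, 5 were tested, none of them a CYP3A gene. The cytochromes Cyp2b12, Cyp2b15, Cyp2b21 and Cyp2s1 were not called and Cyp2g1 fell (difference -0.31, limma adjusted p = 0.00597), a share of 20% beside 12.4% of all features, with a median difference of -0.09. The ratio to the pool of a Cyp2b15 probe, ENSRNOT00000002054, was called lower on its own (difference -0.25 ± 0.05, SE, limma adjusted p = 0.0142). Its liver intensity was not lower, at 0.15 to 0.22 units in controls and 0.19 to 0.27 after LPS. The pool was brighter on LPS arrays by 0.46 on the log2 scale, and rounding allows the groups of ratios to touch. The Cyp2b15 probe D17349 differed by 0.02. The Cyp3a85-ps probe given above stands outside this list. The CYP2C family, listed for comparison, had 7 of 8 genes tested, of which 5 fell (71.4%, beside 12.4% of all features), 1 rose and 1 was not called, with a median of -1.14. Cyp2c11, a male-specific cytochrome of rat liver, fell by 2.03 ± 0.19 on the log2 scale (SE; limma adjusted p = 0.000462), and Cyp2c23, an arachidonic acid epoxygenase, fell by 1.90 ± 0.26 (SE; limma adjusted p = 0.00197). Cyp2c12, a female-specific cytochrome in the rat, rose by 1.73 ± 0.39 (SE; limma adjusted p = 0.0159). Of 14 other drug-metabolising cytochromes, 11 were tested, 7 fell (63.6%), 1 rose and 3 were not called, with a median of -0.79. Cyp2j4 (-1.67 ± 0.22, SE; limma adjusted p = 0.00189) and Cyp2d2 (-1.61 ± 0.11, SE; limma adjusted p = 0.00017) had the largest falls, and Cyp1b1 was the gene that rose, from a mean log2 ratio of -0.15 to 0.95 (limma adjusted p = 0.00438). The brightness of Cyp1b1 was not examined, and rounding to 2 decimals limits the ratios of dim probes. Alas1, Cyp2c6v1, Cyp2c7, Cyp2a1 and Cyp2a2 stand in 2 of these lists, and Hnf4a is also in the list of hepatocyte markers.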

How the data were processed

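RNA of 8 rat livers was measured on 2-channel Agilent arrays. Per the labels, replicates are biological. The authors deposited a linear intensity, rounded to 2 decimals and in arbitrary units, for each channel (Cy5, liver; Cy3, pool). The submitters' processing notes name Agilent Feature Extraction 8.5.1.1, while the sources used here do not give the background correction, dye normalization or treatment of saturated spots. The deposited p-value compares the channels within an array by the authors' error model and entered no test between groups. The authors' series matrix holds log10 ratios that match the table within 0.0165 on the log2 scale, for 23614 of 23615 probes. Headers give each column's group and an animal number that the labels lack; arrays were not matched to labelled replicates by their values.

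Probes were named through the GRCr8 gene table by accession (4176), current symbol (9462) or older symbol (2633); 467 kept a symbol not in that table and 6877 had none. Log2 ratios of liver over pool were averaged per symbol after removal of 188 probes that had under 3 values in a group. The 21052 features were fitted with limma 3.58.1 in R 4.3.3 (lmFit, eBayes; 1.54 prior degrees of freedom; median SE 0.103), with Benjamini-Hochberg adjustment and a threshold of 0.05. Single probes were fitted likewise over 23427 probes. Pairs of genes were compared by an exact permutation test. The naming rule took all members and, of each list, up to 2 largest rises and falls among called genes. For each receptor it also took the 3 features of highest correlation. Further genes were named outside this rule, among them Rxra, Hnf4a, Lbp, A2m, Mpo, Elane, Cyp3a85-ps and further PXR and CAR targets. The members and lists were chosen with earlier results of these data known. The precision is limited by 4 arrays a group. The fit was tested on simulated data. Other software was matplotlib 3.10.9, pandas 2.3.3 and numpy 2.4.6 under Python 3.11.15, and the R package data.table (1.17.8).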

Additional observations from a re-analysis of the deposited data

How the results depend on the processing

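With quantile normalization of the ratios 1518 features were called in place of 5190, and 2 of the 7 tested genes fell in place of 6 (Nr1i2 and Cyp2b3); the cause was not tested. Tested against a 1.5-fold change, 391 features were called and 2 genes fell (Cyp3a1 and Cyp2b2), by the stricter question itself. Leaving out each array gave 3989 to 4841 called features and 4 to 5 genes that fell, with Nr1i3, Por or both lost. Without control array 3 and LPS array 1 together Nr1i3 was lost (limma adjusted p = 0.123). Leaving out LPS array 1, which alone has the lower header dose, left 5 genes that fell. The other alternatives, which were robust and trended eBayes, the liver channel alone, series matrix values, array weights, probes with all values, a floor of 0.1 units and leaving out probes near the ceiling, each left 6 genes that fell, and every probe on its own gave 5823 calls. Median centring changed nothing, since the median ratio of every array was already 0.

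The labels' replicate numbers were used in the series matrix, whose columns name the samples. With them as a replicate block, 3786 features were called and 4 of the 7 genes fell; Nr1i3 (limma adjusted p = 0.0768) and Por (0.052) were lost. Same-numbered deviations correlated at -0.0116, -0.0181, 0.0288 and 0.166, so the numbers were not taken to pair the livers.

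The Nr1i3 minus Nr1i2 difference ranged from -0.0668 to 0.217 when an array was left out, and changed sign without control array 2 (-0.0659), LPS array 2 (-0.0668) or LPS array 4 (-0.0615). Cyp2b2 minus Cyp2b3 ranged from -1.31 to -0.97 in the same way. The median of all features was -0.04 with the ratios, -0.02 after quantile normalization and -0.02 with the liver channel alone. Dim probes with 2 decimals limit AI535430 and Nr1i3, missing control values limit Cyp3a2, and depth of signal over background is not given in the sources used here.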

Other observations

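The LPS array with the lower header dose (array 1) was the least lowered of the LPS arrays for 5 of the 10 member probes that had 4 LPS values and were lower on average than the pool: both Cyp3a1 probes, Cyp3a2, the Cyp2b2 probe M13650 and Por. Without Cyp3a2, whose pool intensity was near the ceiling, it was 4 of 9. Among all features called lower the same held for 908 of 2596 (35.0%), and among those called lower by at least 2-fold for 149 of 313 (47.6%). It is a single array, so no test was made, and the header dose and the animal cannot be told apart.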
